A study of Danio rerio with 17 samples.

Results

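Lysyl oxidases are copper-dependent enzymes that cells secrete into the extracellular matrix. They oxidise lysine and hydroxylysine side chains of collagen and elastin to aldehydes, which then form the crosslinks that stiffen fibres. LOX and LOXL1 are made with a propeptide that proteases such as BMP1 remove, whereas LOXL2, LOXL3 and LOXL4 carry scavenger receptor domains in its place, and LOXL2 is known for crosslinking collagen IV of basement membranes. The 6 genes described here were listed by family as LOXL2, loxa, loxl1, loxl3a, loxl3b and loxl4. They correspond to 7 of the 31701 gene IDs in the count table, since loxl3a and loxl3b match 2 IDs that the symbol table calls LOXL3, and 2 IDs are called LOXL4. The symbol table does not say which LOXL3 ID is loxl3a, so IDs are printed for both symbols. LOXL2 was chosen by its loss in the mutant libraries of these data, so its values against control fish are a description with no test, and the question was whether its relatives share that loss.

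The data are gene counts of 17 RNA libraries, made from sorted eye cells of zebrafish that carry the reporter tg(sox10:RFP), in which the promoter of sox10, a neural crest transcription factor gene, drives a red fluorescent protein. Cancer_High and Cancer_Low (n = 4 each) are sox10-high and sox10-low cells of fish with cancer, aged 7.5 to 10.4 months and of a mutant genotype that includes brca2 hg5/hg5, homozygous for an allele of a DNA repair gene. PreC_High and PreC_Low (n = 3 each) are the same sorts from fish of that genotype labelled as pre-cancerous, aged 4.5 to 4.7 months. The 3 Control_Low libraries are sox10-low cells from fish that carry the reporter alone, aged 4.6 to 5.0 months, and sox10-high control cells were not analysed here. All groups share the reporter. Within a group each library has its own tissue code and ages differ in part, but the labels do not give the number of fish behind a tissue. Every p-value therefore measures only the spread between these samples.

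Library totals ran from 58711787 to 87244522 counts, and SOX10 checked the sort. It was at 747.8 to 1389 CPM (counts scaled to a common library total) in Cancer_High, 16.04 to 417.7 in Cancer_Low, 1329 to 1597 in PreC_High, 9.757 to 23.75 in PreC_Low, and 11.15 to 13.39 in Control_Low. The 417.7 CPM belonged to Cancer_Low 4, which stood apart from the other 3 libraries of its group at 69.11 CPM or less. PreC_Low 3 stood apart in T and NK cell markers, with a summed 5315 CPM. Gene brca2 was at 8.186 to 24.12 CPM in the 14 mutant libraries, against 6.055 to 7.378 CPM in Control_Low, so its gene count does not show the mutation. Photoreceptor markers marked the tissue as eye in PreC_Low, with summed levels of 30580 to 64070 CPM, and in Control_Low, with 19170 to 45430 CPM, while Cancer_Low had 664.7 to 1035 CPM. Cancer libraries carry indexes 10 to 17 and all others 1 to 9, and even values made up 51.2 to 53.9% of counts from 20 to 100 in Cancer libraries, against 60.9 to 77.8% in the others, so stage, age and library index cannot be told apart in Cancer.

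LOXL2 (ENSDARG00000044074) lay below every control library in all 14 mutant libraries. Its level was 46.54, 85.55, 50.51 and 47.03 CPM in Cancer_High, and 63.01, 14.36, 26.18 and 110.6 CPM in Cancer_Low. PreC_High had 57.41, 31.27 and 54.84 CPM, PreC_Low had 10.76, 24.27 and 10.56 CPM, and Control_Low had 360.0, 451.2 and 371.9 CPM. The highest mutant library, Cancer_Low 4, was the one with high SOX10, and the lowest control library was 3.26 times above it. Of all 23299 genes tested, 5.91% had every mutant library below every control library, and 3.36% had every one above. The High libraries have no sox10-high control here, so these 14 mix the sort with the genotype. With the 7 mutant Low libraries alone, 7.62% of all genes lay below every control library.

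In group means, LOXL2 stood at 57.4 ± 18.9 CPM in Cancer_High, 53.5 ± 43.3 in Cancer_Low, 47.8 ± 14.4 in PreC_High, 15.2 ± 7.86 in PreC_Low and 394 ± 49.6 in Control_Low (SD, n = 4, 4, 3, 3 and 3). The order from the top was thus Control_Low, Cancer_High, Cancer_Low, PreC_High and PreC_Low. Neighbours among Cancer_High, Cancer_Low and PreC_High overlapped in their libraries, and PreC_High did not overlap PreC_Low. The fitted log2 fold change against Control_Low was -2.88 ± 0.53 (SE) for Cancer_Low and -4.70 ± 0.65 for PreC_Low. LOXL2 was chosen by this loss, so both values and their SE are a description only.

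**Figure D1:**
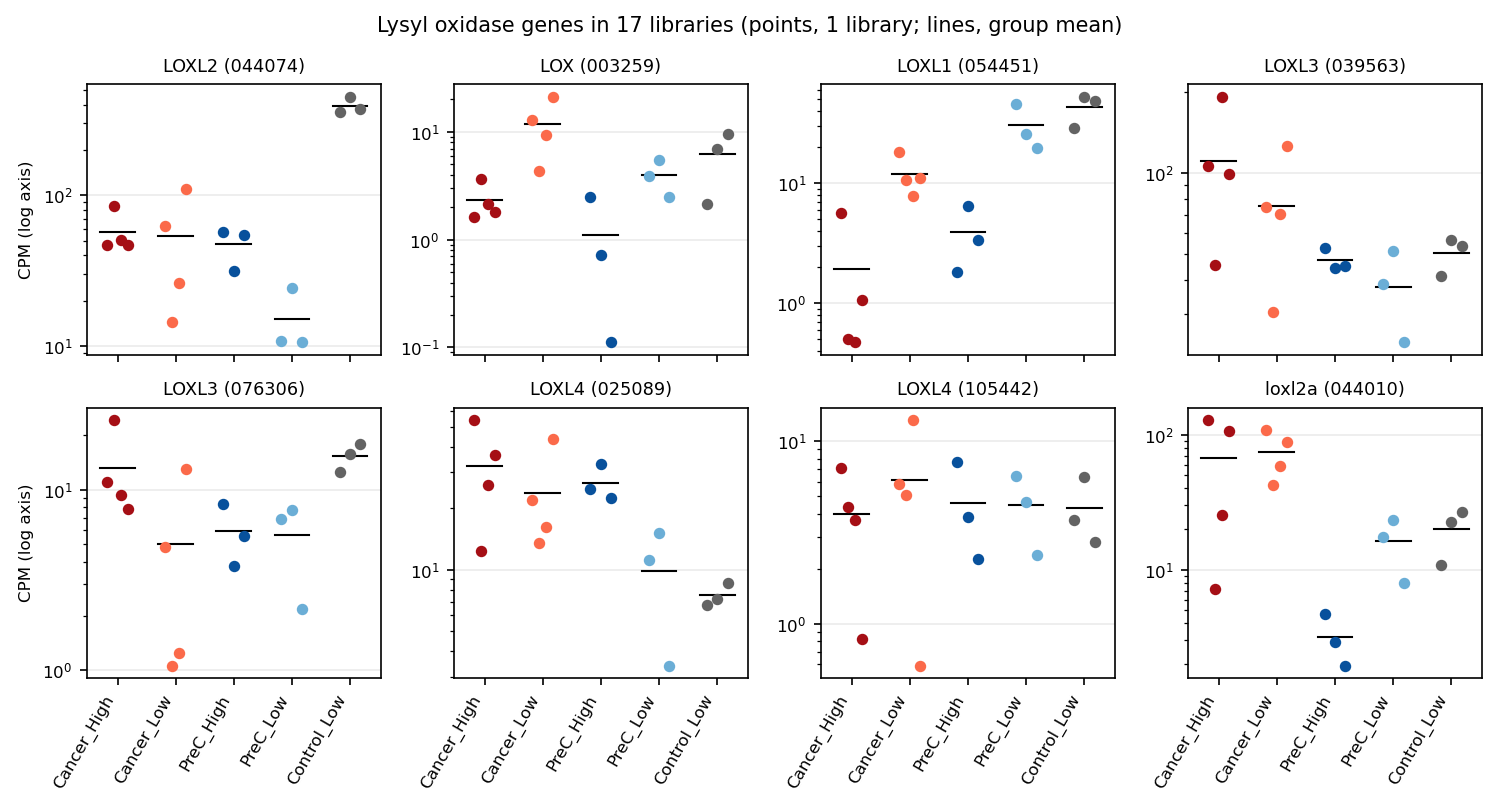
CPM of the 7 lysyl oxidase IDs and of loxl2a in each library on log axes, by group, with a line at each group mean and the last digits of each gene ID in brackets. LOXL2 is the panel in which all 14 mutant libraries, at 10.56 to 110.6 CPM, sit below the 3 control libraries at 360.0 to 451.2 CPM. The controls are sox10-low cells, so Cancer_High and PreC_High have no control of the same sort.

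The relatives did not repeat that order, as none of the other 6 IDs had all 14 mutant libraries on one side of the controls. Most genes do not either, with 5.91% of all genes wholly below and 3.36% wholly above, so this does not set the relatives apart. No share over all genes was taken for the counts of 13 and 12 of 14 that follow. Those counts describe single genes and are not read as a result about the family. LOXL1 (ENSDARG00000054451), which in mice maintains elastic fibres, was below all controls in 13 of 14 mutant libraries. The exception was PreC_Low 1 at 45.6 CPM, above the lowest control library at 28.55 CPM. LOXL3 (ENSDARG00000076306) was below all controls in 12 of 14, the exceptions being Cancer_High 2 at 24.34 CPM and Cancer_Low 4 at 12.95 CPM. LOXL4 (ENSDARG00000025089) went the other way, above all controls in 13 of 14 mutant libraries, with PreC_Low 3 at 3.407 CPM below all of them. As mutant libraries include sox10-high cells and all controls are sox10-low, these counts and the next mix the sort with the genotype. LOXL1 was at 0.470 to 6.487 CPM in mutant High libraries and 7.874 to 45.6 CPM in mutant Low ones. This LOXL4 ID was at 22.44 to 32.78 CPM in PreC_High and 3.407 to 15.14 CPM in PreC_Low, and its Cancer sorts overlapped.

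The remaining 3 IDs straddled the controls. LOX (ENSDARG00000003259), the founding enzyme that crosslinks fibrillar collagen and elastin, ranged over 0.111 to 21.18 CPM in mutant libraries, with a median of 3.08 CPM, and was at 2.132, 6.926 and 9.501 CPM in Control_Low. It lay below all controls in 4 of 14 mutant libraries and above all in 2. LOXL3 (ENSDARG00000039563) ranged over 23.41 to 192.4 CPM in mutant libraries, against 41.46, 56.51 and 53.74 CPM in Control_Low, with 3 libraries below and 6 above. LOXL4 (ENSDARG00000105442) ranged over 0.591 to 13.07 CPM in mutant libraries, against 3.680, 6.380 and 2.787 CPM in Control_Low, with 4 below and 4 above. The 2 IDs of a shared symbol therefore did not move as one, although reads shared between such copies may have been split or dropped in counting, which was not tested.

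In sox10-low cells of pre-cancerous fish against control fish, 0 of the 6 relatives were called, where called means an edgeR quasi-likelihood adjusted p under 0.05, and 1.07% of all genes were. None reached an unadjusted p under 0.05, and DESeq2 and limma voom also called 0. LOXL3 (ENSDARG00000076306) was at 6.834, 7.755 and 2.186 CPM in PreC_Low, against 12.52, 15.71 and 17.79 CPM in Control_Low. These groups did not overlap, yet the log2 fold change of -1.46 ± 0.78 had an adjusted p of 0.393 and a 95% interval of -3.09 to 0.18. LOXL1 was at 45.6, 25.61 and 19.77 CPM in PreC_Low, against 28.55, 52.39 and 48.31 CPM in Control_Low, an overlapping -0.51 ± 0.74 with an interval of -2.08 to 1.06. The other 4 had log2 fold changes of -0.65 ± 0.81 for LOX, -0.42 ± 0.48 for LOXL3 (ENSDARG00000039563), 0.40 ± 0.55 for LOXL4 (ENSDARG00000025089) and 0.06 ± 0.85 for LOXL4 (ENSDARG00000105442), which was at -0.03 with RLE factors.

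In Cancer_Low against Control_Low, 1 of 6 relatives was called and it was higher, while 32.8% of all genes were called. LOXL4 (ENSDARG00000025089) had 21.97, 13.47, 16.14 and 43.68 CPM in Cancer_Low, against 6.704, 7.185 and 8.594 CPM in Control_Low. The groups did not overlap, and the log2 fold change was 1.67 ± 0.54 (adjusted p = 0.0257). This call was lost without Cancer_Low 4 (1.198, adjusted p = 0.0822) and without Control_Low 1, 2 or 3 (1.60, 1.64 and 1.79, adjusted p = 0.0829, 0.077 and 0.0578).

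LOXL1 and LOXL3 (ENSDARG00000076306) had lower means in Cancer_Low than in Control_Low and missed the threshold. LOXL1 had 18.21, 10.62, 7.874 and 10.94 CPM in Cancer_Low, all below the control values, and its log2 fold change was -1.86 ± 0.70 (adjusted p = 0.0501). Scaling by RLE factors put it at -1.92 (adjusted p = 0.0452) and limma voom at -1.89 (adjusted p = 0.00161), so this value sits at the threshold. LOXL3 (ENSDARG00000076306) had 4.789, 1.062, 1.240 and 12.95 CPM in Cancer_Low, against 12.52, 15.71 and 17.79 CPM in Control_Low, at -1.61 ± 0.71 (adjusted p = 0.0906). Without Cancer_Low 4, whose SOX10 was high, it was -2.70 and called (adjusted p = 0.00522). LOX at 0.94 ± 0.77, LOXL3 (ENSDARG00000039563) at 0.58 ± 0.45 and LOXL4 (ENSDARG00000105442) at 0.52 ± 0.80 were not called, with adjusted p of 0.373, 0.346 and 0.655.

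**Figure D2:**
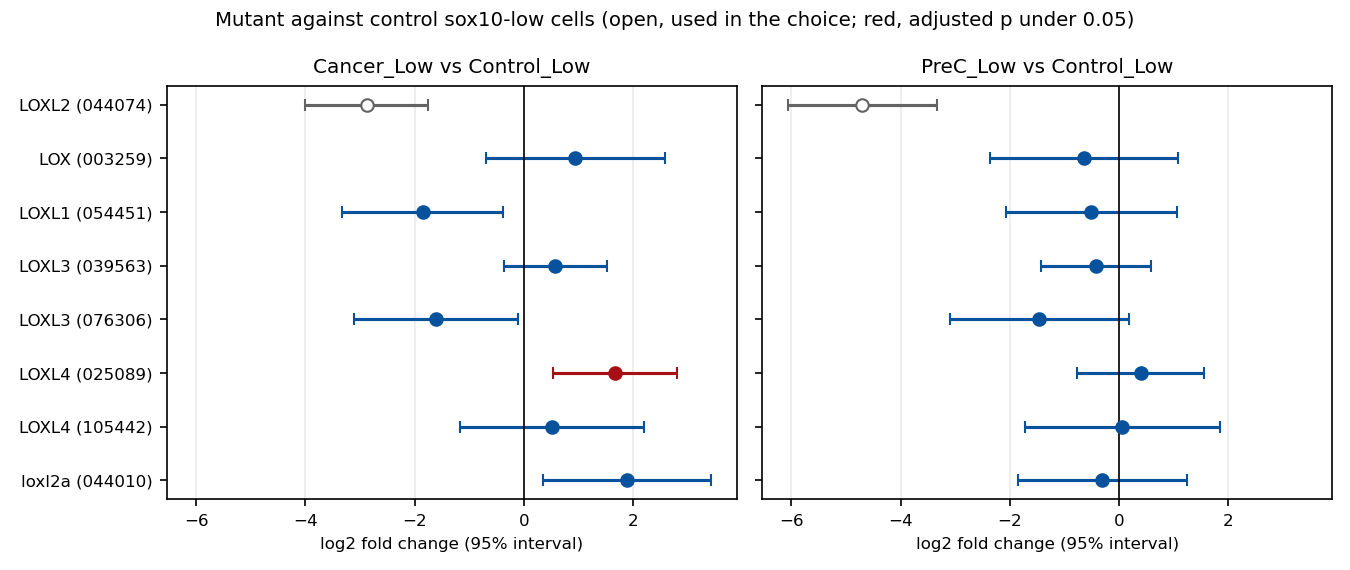
Log2 fold changes with 95% intervals for Cancer_Low and PreC_Low against Control_Low, with LOXL2 as an open symbol because it was chosen by these values. Among the relatives 0 are called in the PreC_Low panel, and in the Cancer_Low panel LOXL4 (ENSDARG00000025089) is called higher, at 1.67.

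Marker levels of some other cell types moved with these contrasts. The summed level of 25 corneal and skin epithelium marker IDs was 4802 to 8738 CPM in Cancer_Low, 9896 to 23010 CPM in PreC_Low and 39010 to 54110 CPM in Control_Low. Of the 22 tested, 3 rose and 17 fell in Cancer_Low against Control_Low, and 1 rose and 1 fell in PreC_Low, where 0 to 9 fell across the alternatives and the list median was -1.32 against 0.09 over all genes, while 2 IDs were at 0 throughout Cancer_Low, 2 throughout PreC_Low and 1 throughout Control_Low. The 18 Müller glia marker IDs summed to 643.3 to 1465 CPM in Cancer_Low, 4188 to 6536 CPM in PreC_Low and 11080 to 12820 CPM in Control_Low, with 1 ID at 0 throughout each of them. Of the 17 tested, 0 rose and 10 fell in Cancer_Low against Control_Low, and 0 rose and 1 fell in PreC_Low. The 17 fibroblast marker IDs, none of them at 0, summed to 2630 to 9080 CPM in Cancer_Low, 1555 to 3838 CPM in PreC_Low and 4347 to 4969 CPM in Control_Low. Of these 17, 0 rose and 3 fell in Cancer_Low against Control_Low, with a list median of 0.50 against 0.17 over all genes. In PreC_Low 0 rose and 0 fell, with a list median of -0.31 against 0.09 over all genes. The part of these cell types in the LOXL2 and LOXL1 levels was not tested. In sorted bulk samples fewer cells of a type and less RNA per cell cannot be told apart.

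**Figure D3:**
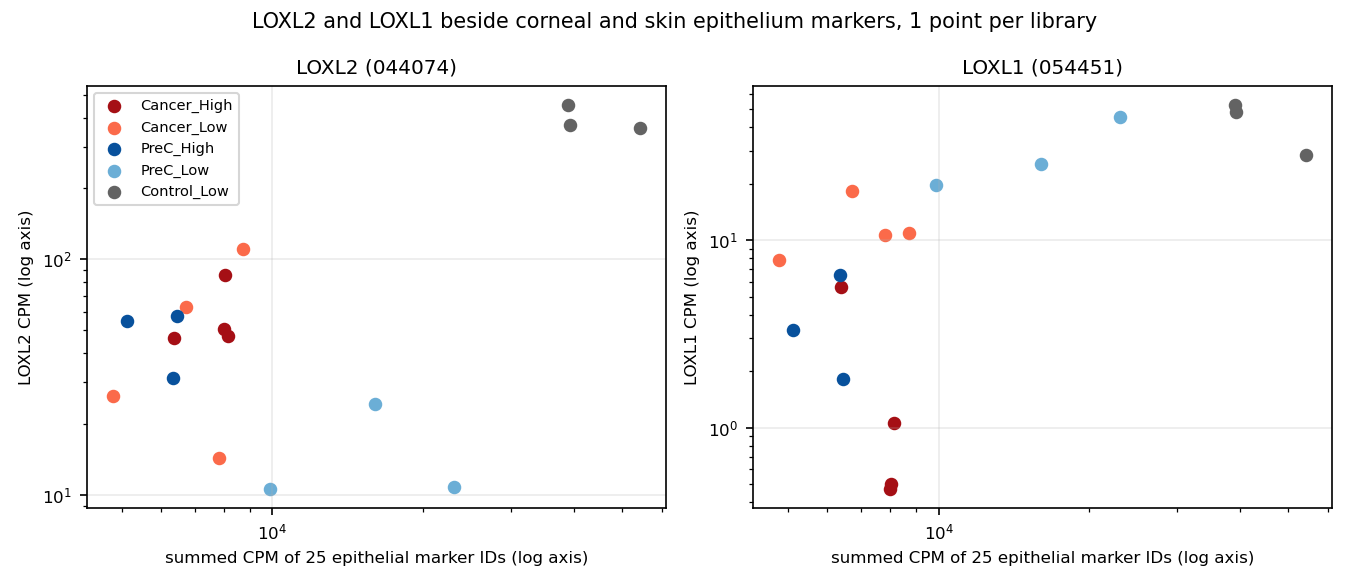
LOXL2 and LOXL1 CPM against the summed CPM of 25 corneal and skin epithelium marker IDs, 1 point per library, all axes logarithmic. The 3 control libraries hold the highest marker sums, 39010 to 54110 CPM, and PreC_Low, at 9896 to 23010 CPM, lies next to them in marker sum and has the lowest group mean of LOXL2, 15.2 CPM. In Cancer_High and in PreC_High, 5 of the 25 IDs were at 0 in every library. In Cancer_High against Cancer_Low, 15 of 22 tested IDs fell and 1 rose. The sum did not show this, at 6370 to 8147 CPM in Cancer_High and 4802 to 8738 CPM in Cancer_Low. The part of corneal and skin epithelium in the LOXL2 and LOXL1 levels was not tested.

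The mutant groups were then compared with each other. LOXL2 was chosen for its loss in all mutant libraries, so its values there, lowest in PreC_Low, were part of that choice. Its p-values in these contrasts are therefore a description, most of all where PreC_Low enters. In PreC_High against PreC_Low, 2 of 7 IDs were called, beside 31.3% of all genes. LOXL1 fell in PreC_High, at 1.822, 6.487 and 3.336 CPM against 45.6, 25.61 and 19.77 CPM in PreC_Low. The groups were far apart, with a log2 fold change of -2.97 ± 0.80 (adjusted p = 0.01), and this call was made under all 15 alternatives run for it, with adjusted p up to 0.046. LOXL2 rose in PreC_High, by 1.66 ± 0.57 (adjusted p = 0.035), with no overlap between the groups. With the tissue as a block, which pairs the High and Low cells of 1 tissue, LOXL2 was at 1.74 and no longer called (adjusted p = 0.073). The LOXL2 call was also lost without PreC_High 1 or 3 (1.503 and 1.544, adjusted p = 0.091 and 0.0831) and without PreC_Low 1 or 3 (1.46 and 1.45, adjusted p = 0.122 and 0.0981).

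The tissue block added calls that the unpaired fit did not make. LOX had 2.485, 0.722 and 0.111 CPM in PreC_High, against 3.922, 5.457 and 2.489 CPM in PreC_Low, lower in each of the 3 tissues. Unpaired it was at -1.83 ± 0.84 (adjusted p = 0.105), and paired by tissue it was at -2.63 (adjusted p = 0.046), and without PreC_High 1 the unpaired value was -3.24 (adjusted p = 0.017). LOXL4 (ENSDARG00000025089) had 24.7, 32.78 and 22.44 CPM in PreC_High, against 11.15, 15.14 and 3.407 CPM in PreC_Low, higher in each tissue. It was at 1.43 ± 0.56 unpaired (adjusted p = 0.0611) and at 1.65 paired by tissue (adjusted p = 0.0179).

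In Cancer_High against Cancer_Low, 2 of 7 IDs were called, both lower, beside 28.4% of all genes. This fit did not pair the sorts of a tissue. In Cancer, the values of such pairs, less their group means, correlated at 0.31 to 0.43. LOXL1 was at 5.605, 0.500, 0.470 and 1.055 CPM in Cancer_High, against 18.21, 10.62, 7.874 and 10.94 CPM in Cancer_Low. The groups did not overlap, and its log2 fold change of -2.64 ± 0.69 (adjusted p = 0.00893) was called under all 16 alternatives run for it, at -4.14 without Cancer_High 1 and with adjusted p up to 0.0395. LOX fell as well, at 1.613, 3.663, 2.145 and 1.823 CPM in Cancer_High against 12.77, 4.305, 9.325 and 21.18 CPM in Cancer_Low, with a log2 fold change of -2.36 ± 0.74 (adjusted p = 0.0241). That call was lost without Cancer_High 1, 3 or 4 (-2.22, -2.33 and -2.26, adjusted p = 0.0639, 0.055 and 0.0569) and without Cancer_Low 4 (-1.93, adjusted p = 0.0595).

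In cancer, LOXL2 was not called between the sorts, and neither was the difference between the stages. LOXL2 was at 0.10 ± 0.48 in Cancer_High against Cancer_Low (adjusted p = 0.901), higher in High cells of 2 tissues and lower in those of the other 2. The interaction, which subtracts the PreC contrast of High with Low from the Cancer one, was -1.55 ± 0.74 (adjusted p = 0.273), and 0 of 7 IDs were called for it, with 1 at an unadjusted p under 0.05 and 0 by DESeq2 or limma voom, beside 3.4% of all genes. LOXL3 (ENSDARG00000076306) was at 1.39 ± 0.67 in Cancer_High against Cancer_Low (adjusted p = 0.134) and at 2.47 without Cancer_Low 4 (adjusted p = 0.00622).

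**Figure D4:**
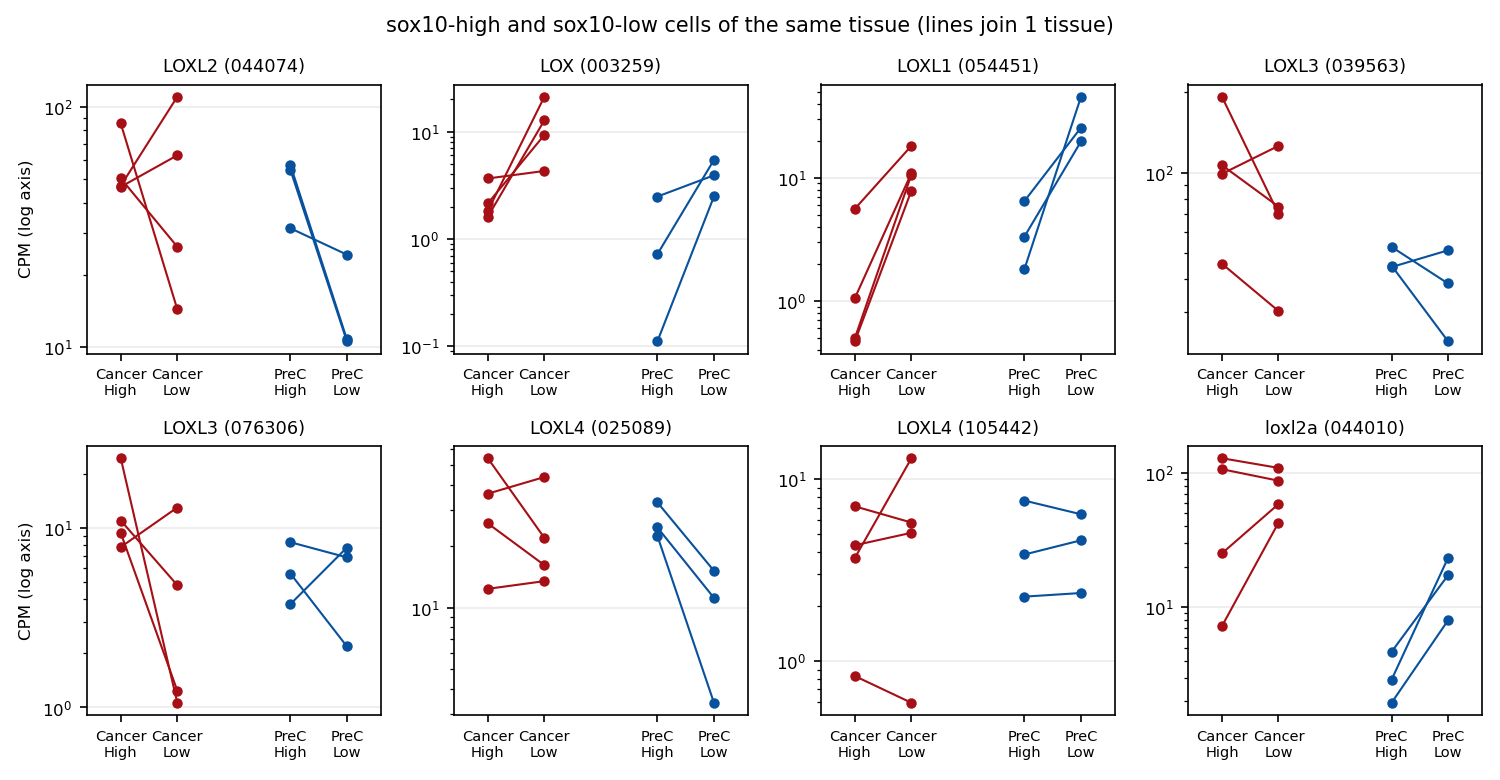
CPM of each lysyl oxidase ID in sox10-high and sox10-low cells of the same tissue on log axes, with lines joining the 2 sorts of 1 tissue. LOXL1 and LOX are lower in High cells of all 7 tissues, and LOXL2 is higher in High cells of the 3 PreC tissues.

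Fibroblast markers moved with the LOXL1 and LOX differences between the sorts. They summed to 259.5 to 349.7 CPM in Cancer_High and 2630 to 9080 CPM in Cancer_Low, and to 408.9 to 693.0 CPM in PreC_High and 1555 to 3838 CPM in PreC_Low. Of 17 fibroblast IDs, 16 fell in Cancer_High and 13 fell in PreC_High. Of 22 epithelial IDs, 19 fell and 2 rose in PreC_High, and 15 fell and 1 rose in Cancer_High. Their summed level was 5127 to 6441 CPM in PreC_High and 9896 to 23010 CPM in PreC_Low, but 6370 to 8147 CPM in Cancer_High and 4802 to 8738 CPM in Cancer_Low, so the sum was not lower in Cancer_High. The median log2 fold change of epithelial IDs was nonetheless -3.879 in PreC_High and -4.485 in Cancer_High, beside -3.579 and -4.261 for fibroblast IDs. Over all genes it was -0.155 and 0.075. Markers of other cell types were lower too. In PreC_High, 17 of 20 macrophage IDs fell, as did 13 of 14 neutrophil, 14 of 21 T and NK cell and 24 of 26 photoreceptor IDs. In Cancer_High those counts were 18, 13, 18 and 20. The T and NK cell count in PreC_High was 8 without PreC_Low 3. Over all genes, 22% were called lower in PreC_High and 17.9% in Cancer_High. The part of any of these cell types in the LOXL1 and LOX results was not tested.

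Between stages, Cancer_Low against PreC_Low had 1 of 7 IDs called, beside 19.1% of all genes. The 1 was LOXL2, whose choice used the PreC_Low values, and it rose in Cancer_Low by 1.82 ± 0.55 (adjusted p = 0.0277), with overlapping libraries. The call was lost without PreC_Low 1 or 3 (1.62 and 1.61, adjusted p = 0.117 and 0.0843), without Cancer_Low 1 or 4 (1.73 and 1.18, adjusted p = 0.0568 and 0.0907), and was 0.97 (adjusted p = 0.206) without both libraries that stood apart. It was also lost in limma voom (1.55, adjusted p = 0.0679) and with only the compared groups fitted (1.86, adjusted p = 0.114). Cancer_High against PreC_High had 0 of 7 IDs called, 1 at an unadjusted p under 0.05, 0 by DESeq2 and 0 by limma voom, beside 10.1% of all genes. LOXL2 was at 0.26 ± 0.52 there (95% interval -0.83 to 1.36). LOXL3 (ENSDARG00000039563) had 106.7, 45.66, 192.4 and 99.01 CPM in Cancer_High, against 52.77, 44.37 and 44.93 CPM in PreC_High. It was at 1.23 ± 0.46 (adjusted p = 0.1), and without Cancer_High 2, the one library inside the PreC_High range, at 1.49 (adjusted p = 0.039).

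A further 3 IDs carry lysyl oxidase symbols outside the list. One of them, loxl2a (ENSDARG00000044010), is the other zebrafish gene named for LOXL2, and it had 128.9, 7.242, 25.22 and 106.8 CPM in Cancer_High, and 109.2, 42.65, 58.74 and 87.68 CPM in Cancer_Low. It had 4.660, 2.888 and 1.946 CPM in PreC_High, 17.36, 23.38 and 8.001 CPM in PreC_Low, and 10.82, 22.66 and 26.87 CPM in Control_Low. Unlike LOXL2 it overlapped the controls in pre-cancerous low cells, and all Cancer_Low libraries lay above them. Its log2 fold change was -0.31 ± 0.73 in PreC_Low against Control_Low (adjusted p = 0.912) and 1.89 ± 0.73 in Cancer_Low against Control_Low (adjusted p = 0.0554), which DESeq2 called (1.83, adjusted p = 0.0266).

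Among high cells, loxl2a differed between Cancer and PreC libraries, where no alternative run tells stage apart from age and library index. It rose in Cancer_High against PreC_High by 4.40 ± 0.83 (adjusted p = 0.00221), without overlap, and was called under all 14 alternatives run for it, at 3.71 to 4.80. It fell in PreC_High against PreC_Low with a log2 fold change of -2.36 ± 0.77 (adjusted p = 0.0282), a call lost without PreC_High 2 or 3 (-2.30 and -2.11, adjusted p = 0.0786 and 0.0974), without PreC_Low 1 or 2 (-2.31 and -2.00, adjusted p = 0.0593 and 0.0896) and in limma voom (-2.27, adjusted p = 0.0903). In Cancer_Low against PreC_Low it was at 2.20 ± 0.74 (adjusted p = 0.0459), a call lost without PreC_Low 1, 2 or 3 (adjusted p = 0.12, 0.0753 and 0.126) or Cancer_Low 1, 3 or 4 (adjusted p = 0.0984, 0.0589 and 0.068). The other 2, loxl5a and loxl5b, stayed at or below 0.528 CPM and 2.84 CPM in every library.

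Genes that the enzymes act on or depend on were counted from lists for the same contrasts. In PreC_Low against Control_Low, 8 of 9 lists had no call in either direction. As only 1.07% of all genes were called there, this does not set the lists apart. The TGF-beta list had 1 of 21 higher, the receptor gene TGFBR2 (ENSDARG00000059363), at 84.1 ± 21.5 CPM in PreC_Low and 23.3 ± 2.12 CPM in Control_Low (SD, n = 3 each), a log2 fold change of 1.85 ± 0.34 (adjusted p = 0.0187). That count was 0 without PreC_Low 2 or any 1 control library.

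Over all genes, 17.2% were called higher and 15.5% lower in Cancer_Low against Control_Low. There, 8 of 21 collagen modification and chaperone genes rose and none fell, with 6 to 11 rising when any 1 library was left out and 7 without both libraries that stood apart. PLOD1, a lysyl hydroxylase of collagen, had 72.3 ± 29.0 CPM in Cancer_Low and 8.13 ± 1.16 CPM in Control_Low, a change of 3.15 ± 0.39 (adjusted p = 1.96e-05). PLOD3, of the same family, was at 1.84 ± 0.28 (adjusted p = 0.000119). The list median was 1.26, against 0.17 over all genes. Immune markers were higher in the same contrast, with 16 of 20 macrophage IDs and 9 of 14 neutrophil IDs called, and the macrophage sum was 3911 to 15220 CPM in Cancer_Low and 1630 to 2309 CPM in Control_Low. Their part in these counts was not tested. Collagens went both ways, with 4 of 19 higher and 7 lower, and the lower ones included col4a5 and col4a6 of basement membranes, at -3.24 ± 0.62 (adjusted p = 0.000831) and -3.57 ± 0.67 (adjusted p = 0.000661). Leaving out 1 library gave 2 to 4 higher, with 2 without Control_Low 1 or Cancer_Low 1, and 4 to 7 lower, with 4 without Control_Low 1, Control_Low 3 or Cancer_Low 2.

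Other lists in Cancer_Low against Control_Low had calls in both directions, as did all genes, and several lay near the shares over all genes. Propeptide cleavage and copper delivery had 6 of 15 higher and 5 lower, including BMP1 (ENSDARG00000028053), the protease that frees LOX, at 4.42 ± 4.08 CPM in Cancer_Low (n = 4) and 30.2 ± 9.96 CPM in Control_Low (n = 3), with -2.77 ± 0.58 (adjusted p = 0.00172). Elastic fibre genes had 3 of 16 higher and 4 lower, fibril-associated matrix genes 2 of 21 higher and 3 lower, and Snail and epithelial-mesenchymal genes 3 of 17 higher and 2 lower. TGF-beta genes had 4 of 21 higher and 3 lower, hypoxia genes 6 of 21 higher and 6 lower, and other amine oxidases 3 of 6 higher and 1 lower. Leaving out 1 library gave 3 to 6 higher and 3 to 5 lower for the propeptide and copper list, with 3 higher without Control_Low 3. It gave 0 to 3 higher for elastic fibre genes, with 0 without Control_Low 1 or Cancer_Low 1, 1 to 3 higher for fibril-associated genes and 1 to 3 higher for Snail genes, with 1 without Control_Low 1 or 3.

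**Figure D5:**
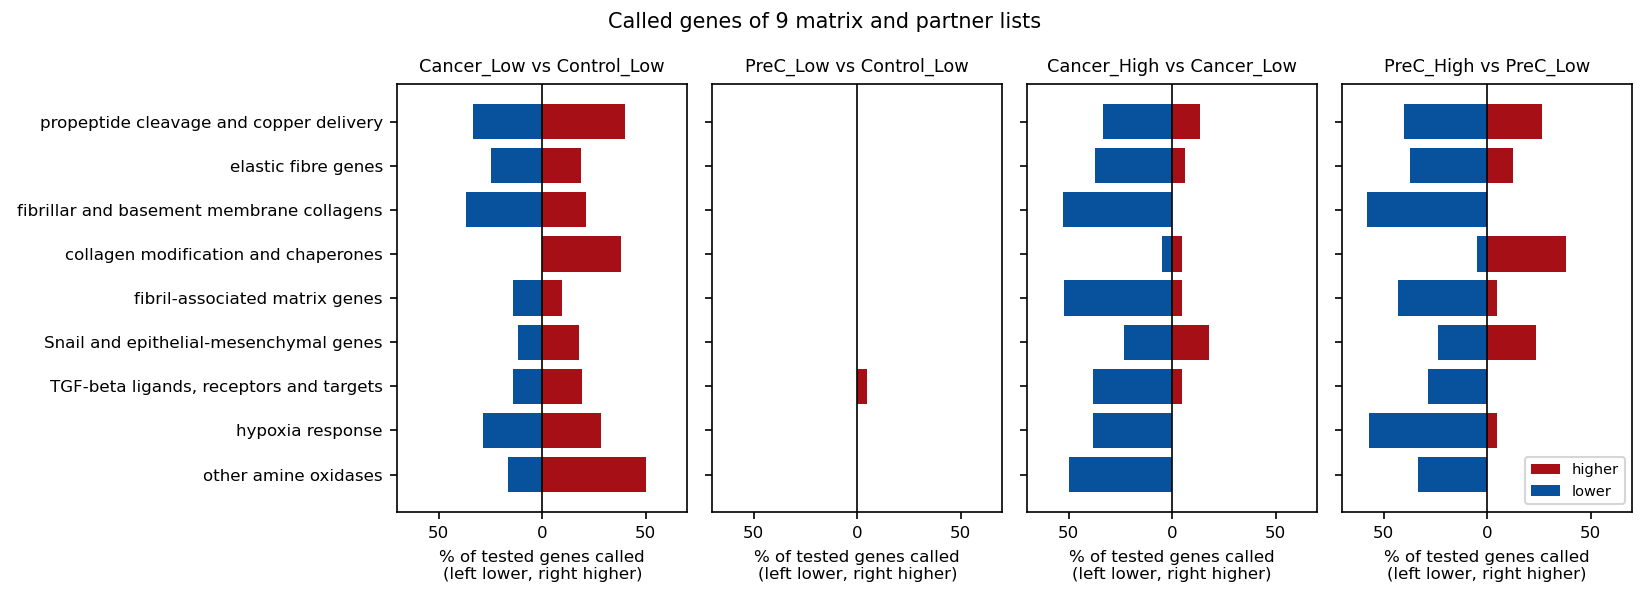
Share of the tested genes of 9 lists called higher (right) or lower (left) in 4 comparisons, in percent. PreC_Low against Control_Low has a single call, and collagens have 0 higher and 10 lower in Cancer_High and 0 higher and 11 lower in PreC_High against their Low cells.

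Substrate genes were lower in the high sort at both stages. Over all genes, 9.28% were called higher and 22% lower in PreC_High against PreC_Low, and 10.5% higher and 17.9% lower in Cancer_High against Cancer_Low. In PreC_High against PreC_Low, 0 of 19 collagens rose and 11 fell, 9 to 11 without any 1 library, with a list median of -2.86 against -0.16 over all genes. In Cancer_High against Cancer_Low, 0 of 19 rose and 10 fell, 9 to 11 without any 1 library, with a median of -2.25 against 0.08. Among them col1a1a, a chain of the main fibrillar collagen, was at 50.6 ± 24.0 CPM in Cancer_High and 1322 ± 1337 CPM in Cancer_Low (n = 4 each), a change of -4.71 ± 0.61 (adjusted p = 3.23e-05). Fibril-associated matrix genes had 1 of 21 higher and 9 lower in PreC_High, and 1 higher and 11 lower in Cancer_High. FN1 (ENSDARG00000019815), encoding fibronectin, was at -4.73 ± 0.59 in PreC_High (adjusted p = 3.29e-05) and -5.19 ± 0.52 in Cancer_High (adjusted p = 3.57e-06). Fibroblast markers, which share collagen genes with these lists, moved the same way, and their part was not tested.

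Most remaining lists had more genes lower than higher in the high sort, as did all genes. Elastic fibre genes had 2 of 16 higher and 6 lower in PreC_High, and 1 higher and 6 lower in Cancer_High, the lower count being 4 without Cancer_High 2 and 3 without Cancer_Low 1. TGF-beta genes had 0 of 21 higher and 6 lower in PreC_High, and 1 higher and 8 lower in Cancer_High, 3 higher without Cancer_Low 4. Hypoxia genes, whose response is known to induce LOX and LOXL2 in human cells, had 1 of 21 higher and 12 lower in PreC_High, and 0 higher and 8 lower in Cancer_High, 5 lower without Cancer_Low 2. Collagen modification genes had 8 of 21 higher and 1 lower in PreC_High. That higher count was 4 to 6 without any 1 library, with 4 without PreC_Low 1 and 5 without PreC_High 2 or PreC_Low 3. In Cancer_High the list had 1 higher and 1 lower, and 4 higher without Cancer_Low 4. Propeptide and copper genes had 4 of 15 higher and 6 lower in PreC_High, and 2 higher and 5 lower in Cancer_High, 4 higher without Cancer_Low 4 and 1 higher without any other 1 library. Snail and epithelial-mesenchymal genes had 4 of 17 higher and 4 lower in PreC_High, and 3 higher and 4 lower in Cancer_High, 1 higher without Cancer_Low 1, 2 or 3. Other amine oxidases had 0 of 6 higher in either, with 2 lower in PreC_High, 1 without PreC_High 2 or 3 or PreC_Low 1, and 3 lower in Cancer_High.

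As a description, likeness was taken as Pearson's r of log2 CPM over the 17 libraries, which share groups and depth, among 10832 genes. The 3 genes most like LOXL2 were cdc42ep5 at 0.80, TAX1BP3 at 0.78 and eva1ba at 0.78. LOXL1 had tmprss13b, nectin4a and spint2, each at 0.95 to 0.96. LOX was closest to ifitm1 at 0.91, GXYLT2 at 0.90 and the lysyl hydroxylase gene PLOD2 at 0.86, and loxl2a to PAM and ASXL2 at 0.86. Within the family, LOXL2 had r of 0.70 with LOXL3 (ENSDARG00000076306), 0.14 with LOXL1 and 0.03 with loxl2a, and the 2 LOXL4 IDs had -0.20 with each other.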

How the data were processed

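Strand-specific paired-end RNA-seq of cells dissociated enzymatically from ocular tissue and sorted by fluorescence was analysed, per the labels. The authors deposited whole-number counts per gene for 31701 Ensembl IDs, used as they stand. The tools in the submitters' processing notes are DESeq2, FastQC, HTSeq and STAR, and the build is danRer10. Not given in the sources used here are tool versions, the annotation release, the strand setting and the handling of reads shared between paralogs. Symbols came from a reference table for 26237 IDs. No gene length of the files' build was used, so levels are not compared between genes. Part of the mutant genotype, which Control fish do not carry, is not reported here.

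Tests used the quasi-likelihood method of edgeR 4.0.16 in R 4.3.3, with 1 model of 5 groups over the 17 libraries, TMM factors and robust shrinkage. The filter filterByExpr, with minimums of 10 counts and 15 in total, kept 23299 genes, including all 7 IDs. Adjusted p are Benjamini-Hochberg over all of them, two-sided, called under 0.05. CPM use TMM-scaled totals, log2 fold changes are ± SE, and other errors are SD. Within-group correlations of log2 CPM were 0.881 to 0.953, and no 2 libraries were identical. Tissue codes in the labels pair High with Low libraries, and residuals of a pair correlated at -0.01 to 0.08 in PreC and 0.31 to 0.43 in Cancer. Code was tested on simulated data. All 7 IDs in each comparison, up to 3 called genes per list with the smallest adjusted p, and the 3 genes most like each ID were to be named, and the text gives part of them. The members and lists were chosen with earlier results of these data known.

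The alternatives tried were scaling by RLE factors, no filter, keeping genes with 1 CPM or more in 3 or more libraries, DESeq2 1.42.0, voom of limma 3.58.1 with the tissue as a random block, only the compared groups, a replicate block, each library left out, and PreC_Low 3 and Cancer_Low 4 both left out. The library index as a block, for PreC and Control libraries, was chosen after seeing the data.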

Additional observations from a re-analysis of the deposited data

Results flagged for a closer look

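Among 14 sets of values of a lysyl oxidase ID in a group of 4 libraries, 2 held a library far from the other 3. The cut-off used flags about 1 in 20 such sets by chance if values are normally distributed, which was not checked for CPM. LOXL2 was at 85.55 CPM in Cancer_High 2, against 46.54 to 50.51 CPM in the other 3 Cancer_High libraries. LOXL1 was at 5.605 CPM in Cancer_High 1, against 0.470 to 1.055 CPM in the other 3.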

How the results depend on the processing

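Among relatives called in Cancer_Low against Control_Low, the count of 1 became 2 with RLE factors, with the CPM filter, with only the compared groups, with the replicate block and with PreC_Low 3 and Cancer_Low 4 both left out, 3 with DESeq2 and limma voom, and 0 to 1 without any 1 library. With RLE factors and with limma voom the calls included LOXL1, which was lower. The share of all genes called was 32.8% in the main fit and is not given here for the alternatives. In Cancer_Low against PreC_Low the count of 1 became 0 with only the compared groups, with the replicate block and with both libraries left out, and 0 to 1 without any 1 library. Without any 1 library it was 1 to 3 in PreC_High against PreC_Low (2), 1 to 2 in Cancer_High against Cancer_Low (2) and 0 to 1 in Cancer_High against PreC_High (0). The counts of 0 in PreC_Low against Control_Low and for the stage difference were 0 under every alternative run.

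Values that changed sign were never called. In PreC_Low against Control_Low, LOXL4 (ENSDARG00000105442) was at -0.03 with RLE factors and DESeq2, -0.012 with the CPM filter, -0.008 with the replicate block and -0.29 to 0.47 without any 1 library. LOXL4 (ENSDARG00000025089) was at -0.042 to 0.81, and loxl2a at -0.666 to 0.017 without any 1 library and 0.006 without both. In Cancer_Low against Control_Low, LOXL4 (ENSDARG00000105442) was at -0.037 in limma voom and -0.17 to 0.93 without any 1 library. In Cancer_High against Cancer_Low, LOXL2 was at -0.21 to 0.73 and loxl2a at -0.69 to 0.22 without any 1 library. The causes were not tested.

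Over all genes, the 250 called in PreC_Low against Control_Low became 1408 with DESeq2, 776 with limma voom, 866 with only the compared groups, 438 with the replicate block, 164 with the index block, 162 without both libraries and 50 to 405 without any 1. Across all genes the median log2 difference there was -0.02 with RLE factors and 0.09 with TMM, and for the stage difference 0.04 and 0.17. Replicate numbers of Low libraries in different groups share only a number. With 3 libraries a group, precision differed by gene, from an SE of 0.34 for TGFBR2 to 0.85 for LOXL4 (ENSDARG00000105442) and 1.13 for loxl5b in PreC_Low against Control_Low.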
